A study of Mus musculus with 8 samples.

Results

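The 10 genes described here are the 4 ERBB receptor tyrosine kinases (*Egfr*, *Erbb2*, *Erbb3* and *Erbb4*) and 6 ligands of the epidermal growth factor (EGF) family (*Hbegf*, *Areg*, *Ereg*, *Tgfa*, *Btc* and *Nrg1*), chosen by symbol from the 50600 genes of the count table. They were measured in a pair of mouse cell lines. NF1-MET is a line from a malignant peripheral nerve sheath tumor (MPNST) with *Met* amplification and intact *Trp53*. The paper also reports a spontaneous deletion of *Cdkn2a* in this line. The mouse that gave rise to it carried 1 floxed and 1 null allele of *Nf1* (Nf1 fl/ko), a MET transgene behind a stop cassette (lox-stop-loxMET tg/+) and an inducible Cre transgene, and NF1-MET;sgP53 shares all of these. NF1-MET;sgP53 was made from it with a lentivirus carrying a CRISPR guide against *Trp53* and puromycin selection. Cells grew in 10% serum and received DMSO (vehicle) or the MET kinase inhibitor capmatinib (100 nM) over 24 h, with 2 libraries for each of the 4 combinations. There was 1 line per genotype, so p53 loss and other differences between the lines cannot be told apart. The study's methods also name an empty-vector control line of NF1-MET. The NF1-MET libraries are described as SEVV and SEVC, abbreviations that are not spelled out. Whether the empty-vector control supplied them is thus not stated in the sources used here. Replicates are labelled biological and came from wells of a line treated in duplicate, so p-values measure the spread between such wells, which may be technical. With libraries scaled by their totals, the median squared deviation between replicates over genes was 1.86 to 8.29 times that expected from counting in the 4 groups. This value includes differences in composition between replicates, which the normalisation factors of the tests adjust for.

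ERBB receptors are bound by ligands that are made as membrane proteins and released by proteases of the ADAM family. EGF, transforming growth factor alpha (*Tgfa*) and amphiregulin (*Areg*) bind EGFR. Heparin-binding EGF-like growth factor (*Hbegf*), betacellulin (*Btc*) and epiregulin (*Ereg*) bind EGFR and ERBB4, and neuregulin 1 (*Nrg1*) binds ERBB3 and ERBB4. ERBB2 has no known ligand and ERBB3 has little kinase activity, so both signal mainly as partners in dimers. In peripheral nerve, neuregulin 1 on axons acting on ERBB2 and ERBB3 is the main signal for growth and myelination of Schwann cells.

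All 6 ligands share the EGF-like fold, held by 6 cysteines. The coding bases of this stretch are shown for 5 ligands to make the shared frame visible, read from GENCODE M21 transcripts of GRCm38 (mm10) with the cysteine codons in capitals. Each stretch covered 36 codons in 108 bases except that of *Nrg1*, with 40 codons in 120 bases, and each was encoded by 2 exons whose intron is left out.
Areg (chr5:91143614-91144364, plus strand, exons 3 and 4): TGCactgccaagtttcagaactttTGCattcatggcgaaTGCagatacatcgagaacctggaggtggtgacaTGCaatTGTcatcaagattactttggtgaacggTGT
Ereg (chr5:91088496-91089111, plus strand, exons 3 and 4): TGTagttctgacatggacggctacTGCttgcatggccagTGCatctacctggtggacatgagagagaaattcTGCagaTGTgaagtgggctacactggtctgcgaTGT
Btc (chr5:91362421-91366197, minus strand, exons 3 and 4): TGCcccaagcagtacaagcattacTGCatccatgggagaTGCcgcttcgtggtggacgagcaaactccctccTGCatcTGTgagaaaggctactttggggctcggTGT
Tgfa (chr6:86263200-86269960, plus strand, exons 3 and 4): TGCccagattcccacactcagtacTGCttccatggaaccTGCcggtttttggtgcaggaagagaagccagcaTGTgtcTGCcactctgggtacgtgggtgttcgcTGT
Nrg1 (chr8:31837698-31849398, minus strand, exons 2 and 3): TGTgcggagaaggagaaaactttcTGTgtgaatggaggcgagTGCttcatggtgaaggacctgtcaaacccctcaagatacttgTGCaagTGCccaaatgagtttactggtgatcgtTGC

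The libraries held 30.1 to 42.8 M counts. The targeted gene *Trp53* was 1.92-fold lower in NF1-MET;sgP53 than in NF1-MET cells in vehicle (98.8 ± 1.82 against 187.6 ± 7.70 CPM, read counts scaled to library size, SD, n = 2) and 1.86-fold lower in capmatinib, and a frameshift allele can still be transcribed and counted. *Gm42418*, a gene that overlaps ribosomal RNA sequence, took between 1.11% and 13.1% of a library. Of 12 markers of the Schwann cell lineage, 6 stayed under 10 counts in every library, among them *Sox10*, *Ngfr* and *Cdh19*, whereas all 10 mesenchymal markers passed the filter, so the label MPNST could not be checked by these defining Schwann cell genes. Markers of leukocytes, endothelium and epithelium passed the filter in 2 of 7, 0 of 5 and 1 of 6 genes, respectively.

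On mm10 with GENCODE M21, the receptor genes are *Egfr* (chr11:16752203-16918158, plus strand), *Erbb2* (chr11:98412470-98437716, plus strand), *Erbb3* (chr10:128567523-128589652, minus strand) and *Erbb4* (chr1:68032186-69108059, minus strand). Among the ligand genes, *Tgfa* is at chr6:86195223-86275719 (plus strand) and *Nrg1* at chr8:31814551-32884029 (minus strand), and *Ereg*, *Areg* and *Btc* are all on chromosome 5.

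The members spanned a wide range of levels (plot of levels by library). The count minimum of 10 in at least 2 libraries was met by 9 of the 10 genes. *Erbb4* had 0 counts in every library, and 3 counts, taken as the detection limit, would have been 0.0702 to 0.108 CPM depending on the library. *Erbb3* and *Tgfa* passed with few counts, at most 31 and 15 in a library. Intervals and limits from counts cover counting error only, since no molecular identifiers are named for these libraries.

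**Figure D1:**
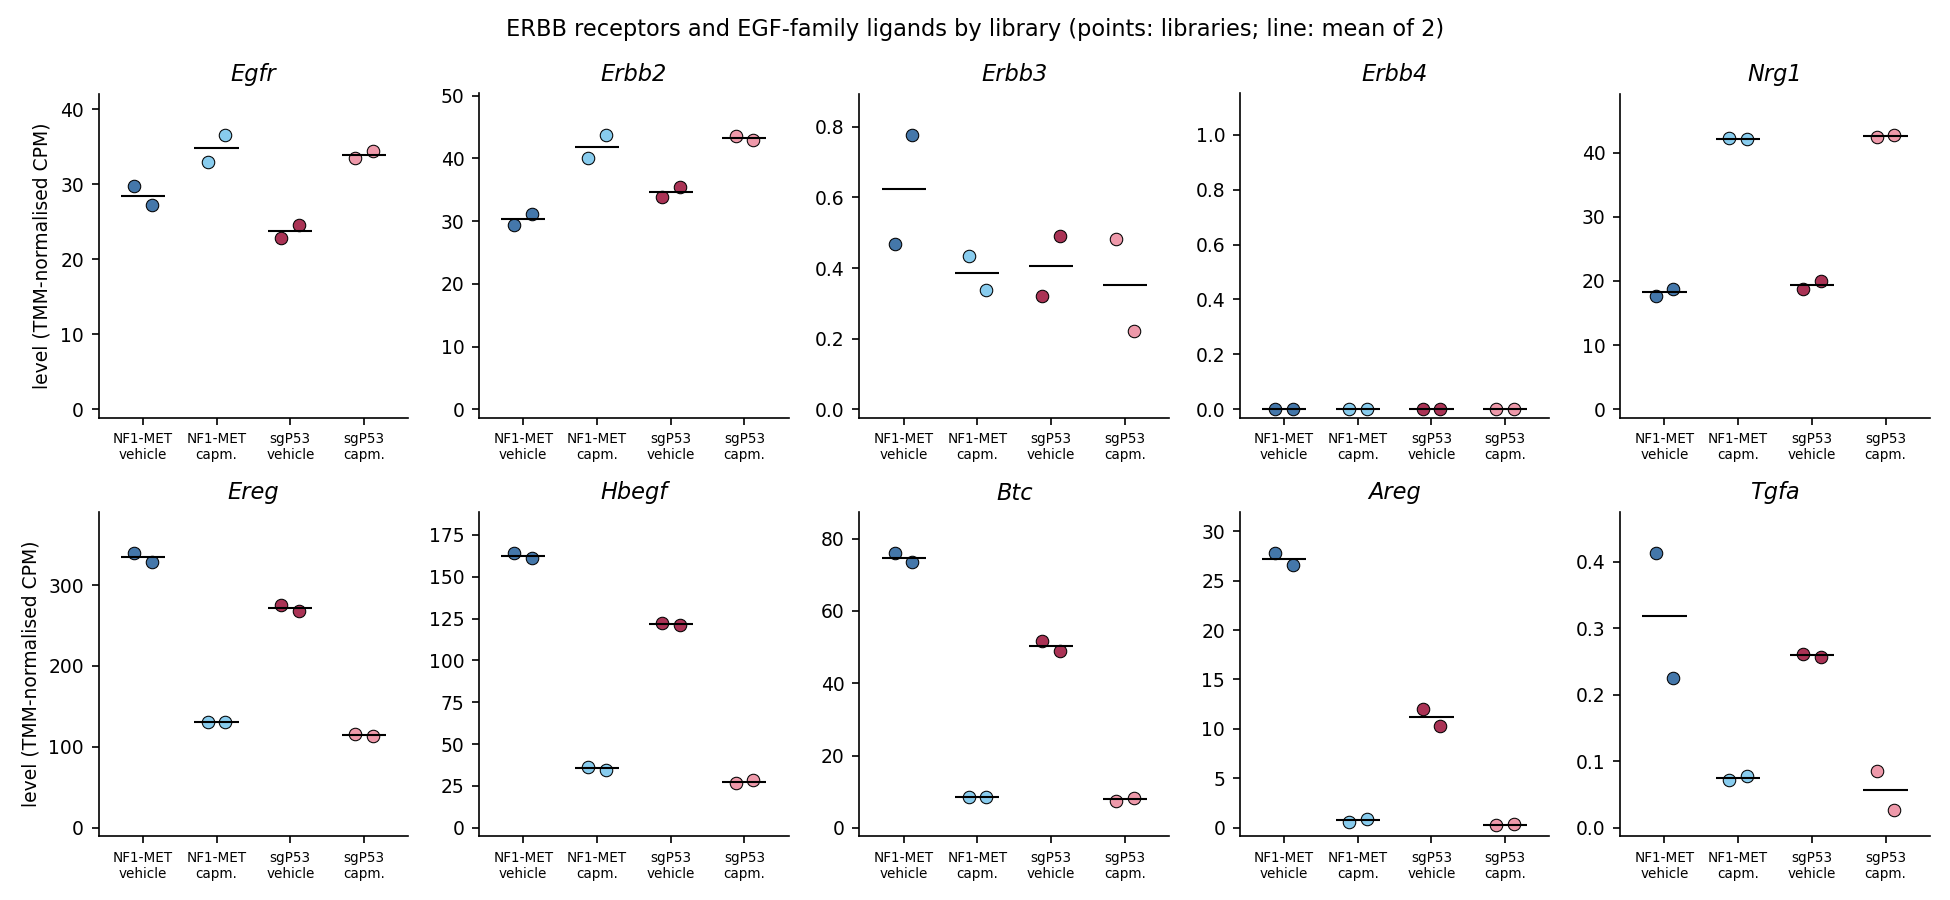
Level of each of the 10 genes (CPM after TMM normalisation, linear axis from 0, scaled per gene) in the 8 libraries, grouped by line and treatment (capm., capmatinib; sgP53, NF1-MET;sgP53), with points for libraries and a line at the mean of 2. *Ereg*, *Hbegf*, *Btc* and *Areg* were lower in every capmatinib library than in any vehicle library, *Nrg1* and *Erbb2* were higher, and *Erbb4* was at 0 throughout.

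Levels of the members were compared with each other per kb of exon. In NF1-MET vehicle cells the ligand transcript with the highest level was *Ereg*, at 80.9 ± 1.82 CPM per kb (SD, n = 2), followed by *Hbegf* at 33.6 ± 0.417, *Areg* at 22.4 ± 0.693 and *Btc* at 16.5 ± 0.393. The neuregulin *Nrg1* was at 1.76 ± 0.0729 and *Tgfa* at 0.0492 ± 0.0204 CPM per kb. The receptor transcripts *Egfr* and *Erbb2* lay far below the leading ligands, and the receptors summed to 8.43 ± 0.11 CPM per kb, against 154 ± 3.34 for the 5 ligands of EGFR. These are transcript levels, and neither protein nor ligand release was measured in these libraries.

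Capmatinib was compared with vehicle in each line to ask how these transcripts changed on MET inhibition. In NF1-MET cells, 5 of the 9 tested members fell (*Areg*, *Btc*, *Hbegf*, *Tgfa* and *Ereg*) and 3 rose (*Nrg1*, *Erbb2* and *Egfr*). The same 5 and the same 3 were called in NF1-MET;sgP53 cells. *Tgfa* passed the count filter through vehicle libraries alone, so its fall is a description, and the number that fell was 4 in each line with the stricter filter and with DESeq2's Wald test. In bulk RNA, fewer cells that express a gene and less RNA per cell cannot be told apart. Capmatinib moved most of the transcriptome, so the counts need that background. In NF1-MET, 34.7% of 14496 tested genes were called lower and 35.5% higher, and in NF1-MET;sgP53 33.4% and 34.2% of 14497. Falls of at least 2-fold were less common, at 5.35% and 5.02% of genes, and the falls of *Areg*, *Btc*, *Hbegf* and *Ereg* in both lines were of this size. Rises of at least 2-fold took 11.5% and 10.4% of genes, and *Nrg1* was the single member with one in each line. Without *Tgfa*, the median log2 fold change of the 8 other tested members was -1.055 and -0.740, against 0.0020 and 0.0049 over all tested genes. With library totals in place of TMM factors the split over all genes moved from 5140 higher and 5029 lower to 3508 and 6381 in NF1-MET, and from 4963 and 4841 to 3260 and 4933 in NF1-MET;sgP53, with the median of all genes at -0.18 and -0.12.

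**Figure D2:**
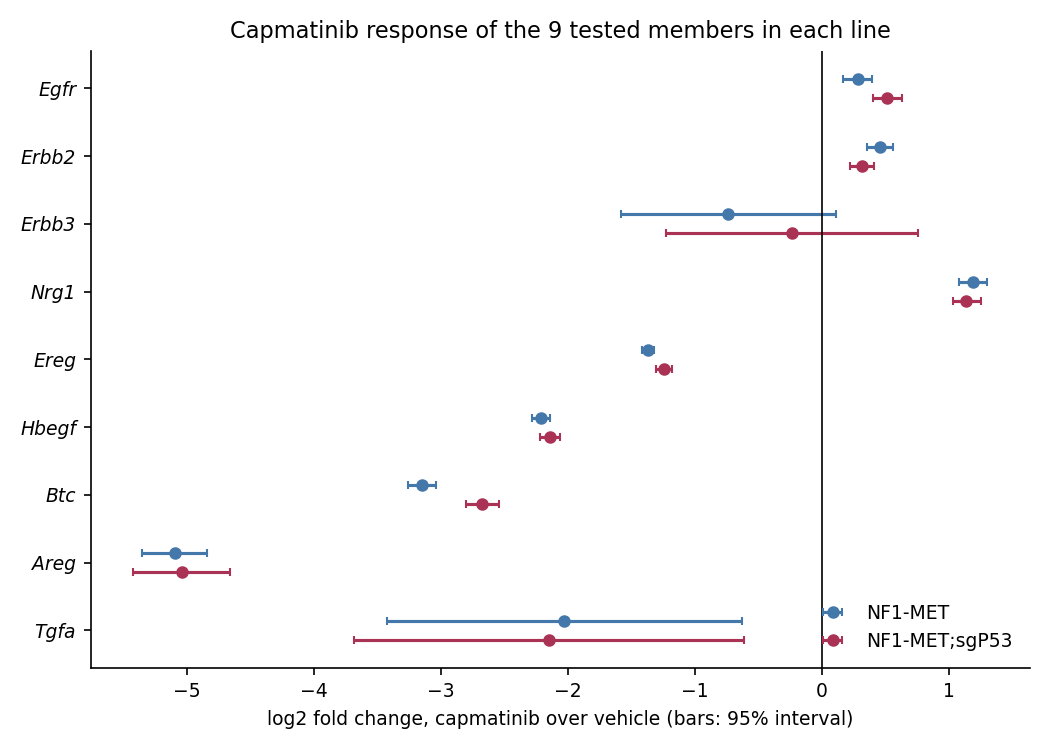
Log2 fold change of capmatinib over vehicle for the 9 tested members in NF1-MET (blue) and NF1-MET;sgP53 (red), with bars for the 95% interval. The 5 ligands of EGFR lie between -5.09 and -1.24, *Nrg1* lies at 1.19 and 1.14, and the bars of *Erbb3* cross 0 in both lines.

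*Areg* had the largest fall of the members. It was at 27.8 and 26.6 CPM in the NF1-MET vehicle libraries and 0.614 and 0.937 CPM in the capmatinib libraries, which rest on 17 and 36 counts. In NF1-MET;sgP53 cells it was 12.04 and 10.3 CPM in vehicle and 0.312 and 0.358 CPM in capmatinib. No library of one treatment came near those of the other. The log2 fold change was -5.09 (SE 0.124, adjusted p = 1.61e-26) in NF1-MET and -5.04 (SE 0.184, adjusted p = 2.33e-16) in NF1-MET;sgP53, that is 34.1-fold and 32.9-fold lower.

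*Btc* came next. It was at 75.95 and 73.4 CPM in NF1-MET vehicle and at 8.64 and 8.41 CPM in capmatinib, and at 51.7 and 49.0 against 7.55 and 8.21 CPM in NF1-MET;sgP53. The lines were apart in vehicle and closer in capmatinib. The fall was 8.88-fold in NF1-MET (log2 fold change -3.15, SE 0.0556, adjusted p = 2.29e-30) and 6.38-fold in NF1-MET;sgP53 (-2.67, SE 0.0627, adjusted p = 7.94e-20).

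*Hbegf*, whose membrane-bound form also signals to neighbouring cells, was at 164 and 161 CPM in NF1-MET vehicle and at 36.6 and 34.8 CPM in capmatinib. In NF1-MET;sgP53 cells it measured 122 and 121 CPM in vehicle and 26.6 and 28.6 CPM in capmatinib. All 4 groups were separate from each other. Capmatinib lowered it 4.62-fold (log2 fold change -2.21, SE 0.0337, adjusted p = 3.69e-32) and 4.41-fold (-2.14, SE 0.0381, adjusted p = 5.34e-22).

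*Ereg*, the most abundant ligand transcript per kb, had the smallest fall of the 5. Its level went from 339 and 329 CPM to 130 and 131 CPM in NF1-MET, and from 275 and 268 CPM to 116 and 113 CPM in NF1-MET;sgP53. It was still the highest of the 6 ligand transcripts per kb in each capmatinib library. The falls were 2.59-fold (log2 fold change -1.37, SE 0.0257, adjusted p = 1.24e-29) and 2.37-fold (-1.24, SE 0.0322, adjusted p = 4.97e-19). An antisense gene, *Gm19610*, shares 141 exon bases with *Ereg*, 3.42% of the exon length of *Ereg*, and the strand setting of the counting is not given in the sources used here.

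*Tgfa* was scarce, with 15 and 9 counts in NF1-MET vehicle against 2 and 3 in capmatinib, and with 9 and 11 against 3 and 1 in NF1-MET;sgP53. Each vehicle library had more counts than any capmatinib library of its line. The ratio of capmatinib to vehicle was 0.240 (95% interval 0.0716 to 0.642) and 0.216 (0.0536 to 0.643). No capmatinib library reached the 10 counts of the filter, which *Tgfa* passed through 1 vehicle library of each line. Its falls were thus conditioned on high vehicle counts, and were called by edgeR (adjusted p = 0.00924 and 0.0137) but not by DESeq2's Wald test (adjusted p = 0.0855 and 0.108). They were also lost without replicate 1 of NF1-MET vehicle (adjusted p = 0.125), without replicate 2 of NF1-MET capmatinib (0.0566) and without replicate 2 of NF1-MET;sgP53 capmatinib (0.116), in edgeR's test.

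The neuregulin *Nrg1* went the other way. It was at 17.7 and 18.8 CPM in NF1-MET vehicle and at 42.2 and 42.1 CPM in capmatinib. In NF1-MET;sgP53 cells it measured 18.7 and 19.97 CPM in vehicle and 42.5 and 42.8 CPM in capmatinib. Treated and untreated libraries were well apart, while the lines were close within each treatment. The rises were 2.28-fold (log2 fold change 1.19, SE 0.0541, adjusted p = 4.32e-19) and 2.20-fold (1.14, SE 0.0529, adjusted p = 1.64e-14). *Nrg1* shares 482 exon bases (4.66%) with the antisense gene *Gm26578*.

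The receptors *Egfr* and *Erbb2* rose by less than the ligands moved. *Egfr* was at 29.7 and 27.2 CPM in NF1-MET vehicle, 33.0 and 36.6 in NF1-MET capmatinib, 22.8 and 24.6 in NF1-MET;sgP53 vehicle, and 33.5 and 34.4 in NF1-MET;sgP53 capmatinib. The treatments did not overlap in either line, whereas the lines overlapped in capmatinib. Its rise was 1.22-fold in NF1-MET (log2 fold change 0.28, SE 0.0561, adjusted p = 4.44e-05) and 1.43-fold in NF1-MET;sgP53 (0.52, SE 0.0549, adjusted p = 2.40e-08). With library totals the NF1-MET call was lost (0.0929, adjusted p = 0.249).

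*Erbb2*, the shared dimer partner, was at 29.45 and 31.1 CPM in NF1-MET vehicle, 40.0 and 43.8 in NF1-MET capmatinib, 33.9 and 35.5 in NF1-MET;sgP53 vehicle, and 43.7 and 42.9 in NF1-MET;sgP53 capmatinib. Again the treatments were separate and the capmatinib groups overlapped. The rises were 1.37-fold (log2 fold change 0.46, SE 0.0513, adjusted p = 2.03e-09) and 1.25-fold (0.32, SE 0.0454, adjusted p = 2.01e-06). The call in NF1-MET;sgP53 was lost with library totals (0.194, adjusted p = 0.121).

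*Erbb3*, the kinase-poor receptor of neuregulin 1, had 17 and 31 counts in NF1-MET vehicle, 12 and 13 in NF1-MET capmatinib, 11 and 21 in NF1-MET;sgP53 vehicle, and 17 and 8 in NF1-MET;sgP53 capmatinib. In CPM the treatments were close but separate in NF1-MET (lowest vehicle 0.468, highest capmatinib 0.434) and overlapped in NF1-MET;sgP53. The ratio of capmatinib to vehicle was 0.600 (95% interval 0.355 to 0.993) and 0.842 (0.478 to 1.47) from counting alone. The log2 fold changes were -0.74 (95% interval -1.58 to 0.107, adjusted p = 0.113) and -0.24 (-1.23 to 0.754, adjusted p = 0.679), and neither was called. In NF1-MET it was called with library totals (-0.927, adjusted p = 0.0416) and without replicate 1 of NF1-MET vehicle (-1.04, adjusted p = 0.0484), while without replicate 2 it was at -0.316 (adjusted p = 0.637). Both receptors that bind neuregulin 1 were thus under 1 CPM in every library, *Erbb4* at 0.

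The make-up of the EGFR ligand transcripts shifted with the inhibitor (plot of summed ligand levels). The 5 ligands summed to 156 and 151 CPM per kb in the NF1-MET vehicle libraries and to 41.6 CPM per kb in both capmatinib libraries. In NF1-MET;sgP53 the sums were 113 and 109 in vehicle and 35.6 and 35.5 CPM per kb in capmatinib. *Ereg* made up 52.7% of the sum in NF1-MET vehicle (SD 0.0378 percentage points, n = 2) and 76.1% (SD 0.236) in capmatinib, and 59.1% (SD 0.372) and 78.2% (SD 1.21) in NF1-MET;sgP53. The share of *Areg* went from 14.6% (SD 0.135) to 1.54% (SD 0.453) and from 8.25% (SD 0.695) to 0.776% (SD 0.0772). The shares rest on exon lengths from the annotation and were not tested. The ratio of this sum to *Nrg1* was 87.2 ± 5.50 in NF1-MET vehicle and 10.2 ± 0.0188 in capmatinib (SD, n = 2), and 59.8 ± 4.24 and 8.63 ± 0.0658 in NF1-MET;sgP53. Summed over the receptors, the level was 8.43 ± 0.11 and 11.2 ± 0.728 CPM per kb in vehicle and capmatinib in NF1-MET, and 8.82 ± 0.349 and 11.4 ± 0.0746 CPM per kb in the sgP53 line.

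**Figure D3:**
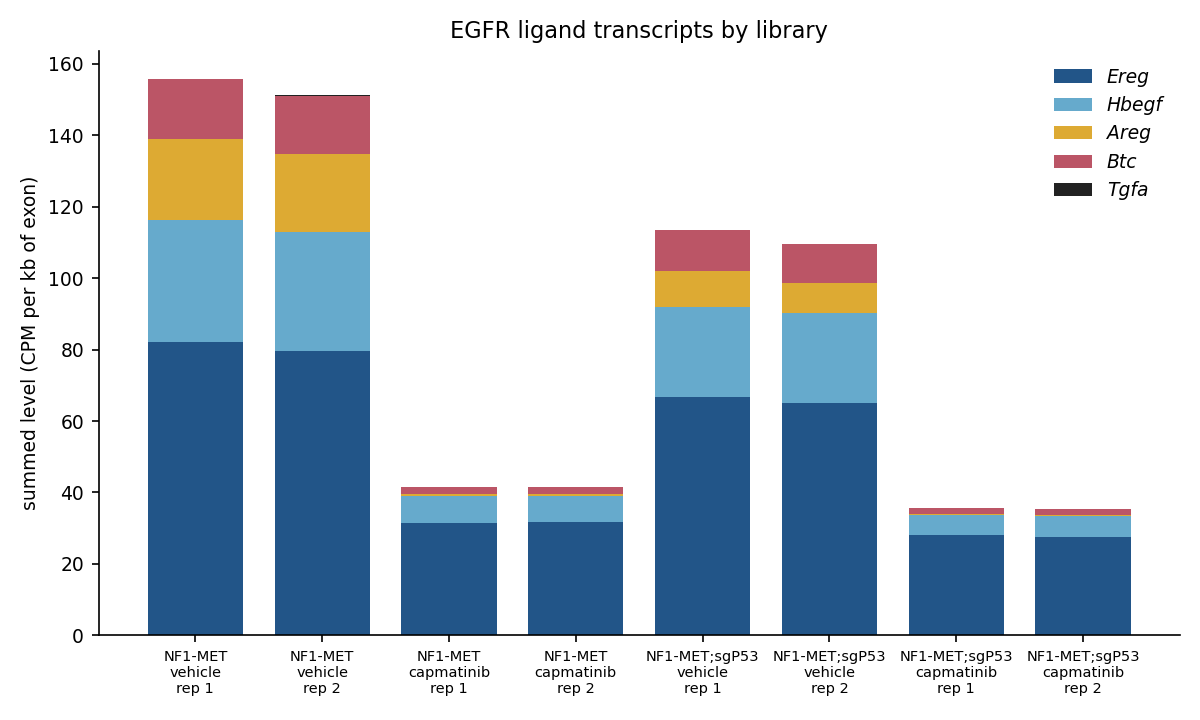
Summed level of the 5 ligands of EGFR (CPM per kb of exon, stacked from 0) in each of the 8 libraries, with 1 color per gene. The vehicle bars reach 109 to 156 and the capmatinib bars 35.5 to 41.6 CPM per kb, with *Ereg* the largest segment in each library and *Tgfa* too small to see.

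Marker genes of cell types moved with the treatment as well. The summed level of the 12 Schwann cell genes was 41.3 to 42.9 CPM in NF1-MET vehicle and 180 to 184 CPM in capmatinib, and 47.3 to 50.9 against 184 to 189 CPM in NF1-MET;sgP53. Most of these sums came from *Pmp22*, a peripheral myelin protein gene (23.1 ± 0.0356 to 103.5 ± 2.52 CPM in NF1-MET, SD, n = 2), and *Egr2*, a transcription factor of myelinating Schwann cells (16.1 ± 1.41 to 73.9 ± 0.412 CPM). Of the 6 that were tested, 4 rose and 0 fell in NF1-MET, and 5 rose and 1 fell in NF1-MET;sgP53 (1 of the rises in each line was of a gene that passed the filter through capmatinib libraries alone), beside the shares of 35.5% higher and 34.7% lower, and 34.2% and 33.4%, over all genes. *Pmp22* was 4.42-fold and 4.08-fold higher and *Egr2* 4.54-fold and 3.57-fold higher. *S100b*, a calcium-binding protein of Schwann cells, was the 1 that fell in NF1-MET;sgP53 (3.86-fold, adjusted p = 0.0185), from 5 and 21 counts to 3 and 3. The 10 mesenchymal genes summed to 14782 and 14852 CPM in the NF1-MET vehicle libraries and to 39504 and 39966 CPM in capmatinib, and to 15710 and 15792 against 39353 and 39444 CPM in NF1-MET;sgP53. In each line 6 of the 10 rose and 3 fell, the latter close to the share of all genes called lower (34.7% and 33.4%). The collagen genes *Col1a1* (6.22-fold and 4.63-fold higher) and *Col1a2* (3.24-fold and 2.91-fold higher) made up most of the rise, whereas *Vim*, *Pdgfra* and *Twist2* fell in both lines. Leukocyte markers summed to 1.77 to 2.12 CPM in the 8 libraries and endothelial markers to 0.130 to 0.358 CPM. Both leukocyte markers that were tested were called, the macrophage receptor gene *Csf1r* higher (3.69-fold and 2.21-fold, adjusted p = 0.000306 and 0.0168) and *Cd68* lower (1.86-fold and 1.56-fold, adjusted p = 0.00277 and 0.0391). The epithelial list summed to 0.634 to 0.727 CPM in NF1-MET vehicle and 0.108 to 0.130 CPM in capmatinib, and to 0.351 to 0.436 against 0.0276 to 0.170 CPM in NF1-MET;sgP53. Its 1 tested gene, the keratin gene *Krt8*, had 16 and 23 counts in NF1-MET vehicle and 0 and 1 in capmatinib, and 8 and 4 against 0 and 0 in NF1-MET;sgP53. It passed the filter through the NF1-MET vehicle libraries alone, so its counts are a description in both the treatment and the line comparison. Markers also differed between the lines in vehicle, where 6 of the 10 mesenchymal genes were higher and 4 lower in NF1-MET;sgP53 (*Col1a1* 1.32-fold and *Pdgfrb* 1.28-fold higher) and 2 of the 6 tested Schwann cell genes were higher, beside 10.9% higher and 12.3% lower over all genes. Between the lines in capmatinib, 3 of the 10 mesenchymal genes were higher and 3 lower. Of the 6 Schwann cell genes, 1 was higher and 1 lower there, beside 5.94% and 6.34% over all genes. In the interaction of line and treatment, 2 of the 10 mesenchymal genes were called higher and 3 lower. Of the 6 Schwann cell genes, 0 were called higher and 1 lower, beside 3.85% and 5.86% over all genes. The part of these markers in the ligand and receptor results was not tested.

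Without capmatinib, the lines were compared to ask how the same transcripts differed where *Trp53* was targeted. In vehicle, 5 of the 9 members were lower in NF1-MET;sgP53 than in NF1-MET (*Areg*, *Btc*, *Hbegf*, *Ereg* and *Egfr*) and 1 was higher (*Erbb2*), where 12.3% of 14484 tested genes were called lower and 10.9% higher. *Areg* was 2.47-fold lower (log2 fold change -1.31, SE 0.0719, adjusted p = 3.56e-11) and *Btc* 1.51-fold (-0.59, SE 0.0368, adjusted p = 2.14e-10). For *Hbegf* the difference was 1.35-fold (-0.44, SE 0.0288, adjusted p = 4.92e-10) and for *Ereg* 1.25-fold (-0.32, SE 0.0266, adjusted p = 1.79e-08). The vehicle libraries of the lines did not overlap for any of these ligands. *Egfr* was 1.21-fold lower (-0.28, SE 0.0599, adjusted p = 0.00162). *Erbb2* was 1.13-fold higher (0.18, SE 0.0509, adjusted p = 0.0148). That call was lost with DESeq2's Wald test (adjusted p = 0.129), without replicate 1 of NF1-MET vehicle (0.140 in edgeR's test) and without replicate 2 of NF1-MET;sgP53 vehicle (0.121), and the call of *Egfr* was lost with library totals (-0.221, adjusted p = 0.0563). *Nrg1* did not pass (0.07, 95% interval -0.0706 to 0.203), nor did *Erbb3* and *Tgfa*. With library totals the calls over all genes went from 1580 higher and 1775 lower to 1280 and 743.

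In capmatinib, 2 of the 9 members were called between the lines. *Hbegf* was 1.29-fold lower in NF1-MET;sgP53 (log2 fold change -0.37, SE 0.0527, adjusted p = 9.86e-05) and *Ereg* 1.14-fold lower (-0.19, SE 0.0311, adjusted p = 0.000486), and 0 members were higher by edgeR or by DESeq2, with 0 at an unadjusted p under 0.05. Over all 14481 tested genes, 6.34% were lower and 5.94% higher. *Areg* was at -1.24 (95% interval -2.07 to -0.397), a value close to that in vehicle, with an adjusted p of 0.0512. It passed with the stricter filter (0.0305), with all 8 libraries in 1 model (0.0172) and without replicate 1 of NF1-MET capmatinib (0.0236). *Btc* was at -0.11 (95% interval -0.308 to 0.0885), *Nrg1* at 0.02 (-0.0708 to 0.106), *Erbb2* at 0.04 (-0.0564 to 0.142) and *Egfr* at -0.04 (-0.152 to 0.0703). With library totals neither *Hbegf* (-0.251, adjusted p = 0.183) nor *Ereg* (-0.0709, adjusted p = 0.700) was called, and the calls over all genes went from 860 higher and 918 lower to 537 and 129.

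Whether the response to capmatinib differed between the lines was tested by the interaction of line and treatment over the 8 libraries. *Btc* was the single member called, with a fall smaller in NF1-MET;sgP53 by a log2 difference of 0.46 (SE 0.0910, adjusted p = 0.0012), where 3.85% of genes were called in that direction and 5.86% in the other. For *Ereg* the difference was 0.11 (SE 0.0404, adjusted p = 0.0884), and it was called when *Gm42418* was left out (0.147, adjusted p = 0.0197), when no filter was used (0.137, adjusted p = 0.0319) and without replicate 2 of NF1-MET;sgP53 capmatinib (0.164, adjusted p = 0.0168). *Egfr* was at 0.22 (SE 0.0837, adjusted p = 0.11), and at 0.302 (adjusted p = 0.0435) without replicate 2 of NF1-MET capmatinib. In the other direction 0 members were called by edgeR or by DESeq2, and 1, *Erbb2*, had an unadjusted p under 0.05 (-0.15, SE 0.0707, adjusted p = 0.196). *Hbegf* and *Nrg1* had narrow intervals around 0, of -0.0604 to 0.160 and -0.224 to 0.0871, whereas that of *Areg* ran from -0.927 to 1.01. Over all genes the calls went from 558 higher and 849 lower to 192 and 123 with library totals, to 873 and 612 without *Gm42418*, and to 713 and 509 without replicate 2 of NF1-MET;sgP53 capmatinib.

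The genes of 3 ligands lie in 1 cluster. *Ereg* (chr5:91074622-91093646, plus strand), *Areg* (chr5:91139599-91148432, plus strand) and *Btc* (chr5:91357261-91402994, minus strand) follow each other on mm10, with *Epgn*, another EGF-family ligand, before them. *Epgn* had 21 counts over the 8 libraries and was not tested. Of 34 annotated genes within 500 kb of the cluster, 9 passed the filter (plot of the ligand cluster). *Mthfd2l*, a mitochondrial folate enzyme gene that starts at -208.5 kb from the *Areg* start, fell by 0.32 (SE 0.0779) in NF1-MET and by 0.24 (SE 0.0851) in NF1-MET;sgP53 on the log2 scale. The chemokine genes *Cxcl1* and *Cxcl5*, at -248.4 and -380.2 kb, rose. In NF1-MET their log2 fold changes were 2.55 and 3.32, and 2.23 and 3.16 in the other line, at mean levels of 2.07 and 0.759 CPM. *Cxcl5* passed the filter through capmatinib libraries, with 10 or more counts in 1 vehicle library, so its rise is a description. *Rassf6* rose by 3.68 and 2.08. The antisense *Gm19610* fell by 1.29 and 1.62 and cannot be told apart from *Ereg* where their exons overlap. Beyond *Btc*, only the pseudogene *Gm7832* was tested, and it was not called. The falls of these ligands were thus larger in size than that of *Mthfd2l*, the next tested gene before them that is not antisense.

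**Figure D4:**
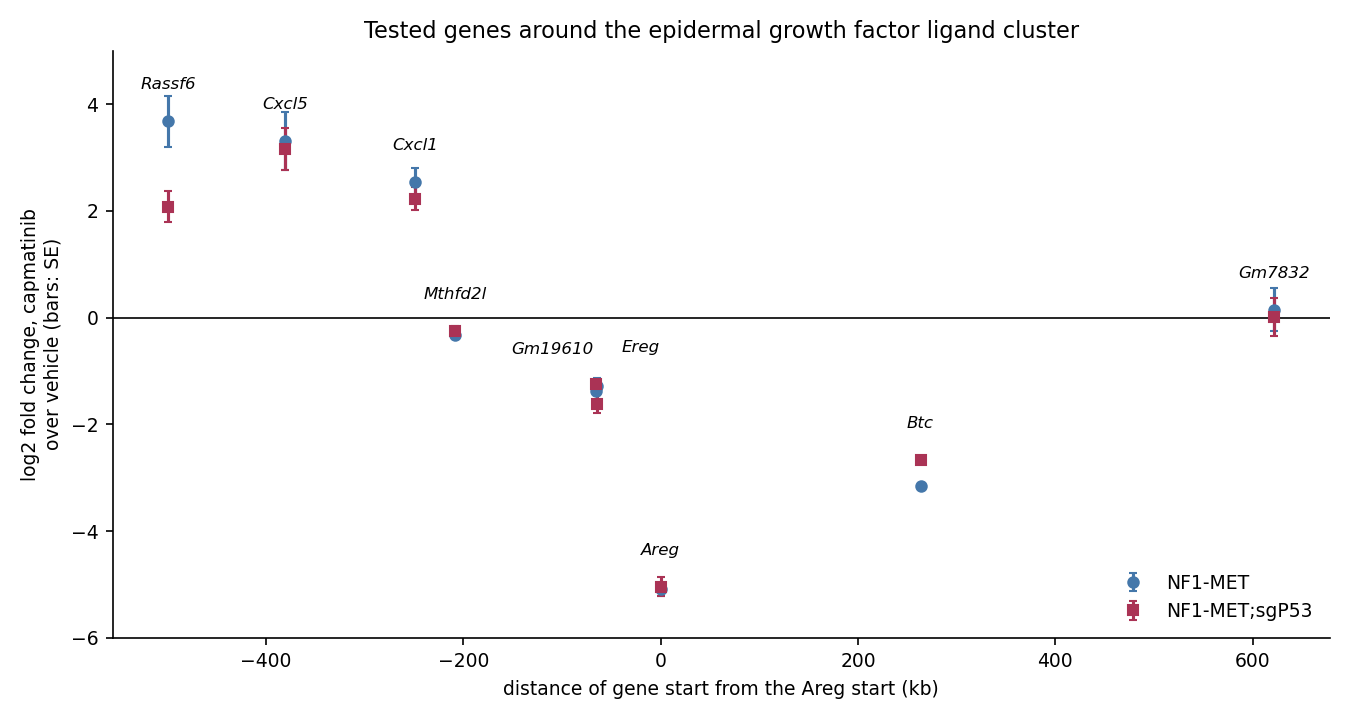
Log2 fold change of capmatinib over vehicle (bars, SE) for the 9 tested genes within 500 kb of the ligand cluster, against the distance of each gene's start from that of *Areg* in kb, in NF1-MET (circles) and NF1-MET;sgP53 (squares). *Ereg* and the antisense *Gm19610* share nearly the same place at -65.0 and -64.8 kb. *Ereg*, *Areg*, *Btc* and *Gm19610* lie at -1.24 or below, and *Cxcl1*, *Cxcl5* and *Rassf6* lie at 2.08 or above.

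The bases before the start sites of *Areg* and *Btc*, the members with the largest falls, and of *Egfr*, a member that rose, are shown for comparison. They were taken from RefSeq on GRCm38.p6, where 6 of the 10 members had an entry, and capitals mark matches on either strand to TGANTCA (the AP-1 motif), TGACGTCA (the cAMP response element), CCGGAA (an ETS core) and GGGCGG (a GC box). In the 250 bases before the start, *Areg* held 1 TGACGTCA at 61 bases and 1 GGGCGG at 52 bases before the start. *Btc* held none of the 4 motifs, and *Egfr* held 1 CCGGAA and 1 GGGCGG. *Erbb2* held none, *Erbb4* 1 CCGGAA and *Tgfa* 2 matches to GGGCGG. Over all 32851 promoter windows of this length, TGANTCA was found in 6.75%, TGACGTCA in 1.55%, CCGGAA in 12% and GGGCGG in 32.7%. The matches are descriptions of the sequence, and binding was not measured.
Areg (chr5:91139349-91139598, plus strand): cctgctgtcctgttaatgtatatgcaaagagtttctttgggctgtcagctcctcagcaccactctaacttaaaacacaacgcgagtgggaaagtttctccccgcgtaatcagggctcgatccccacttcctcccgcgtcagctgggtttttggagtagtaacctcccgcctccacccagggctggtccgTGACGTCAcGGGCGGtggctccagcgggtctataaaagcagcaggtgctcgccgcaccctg
Btc (chr5:91402995-91403244, minus strand): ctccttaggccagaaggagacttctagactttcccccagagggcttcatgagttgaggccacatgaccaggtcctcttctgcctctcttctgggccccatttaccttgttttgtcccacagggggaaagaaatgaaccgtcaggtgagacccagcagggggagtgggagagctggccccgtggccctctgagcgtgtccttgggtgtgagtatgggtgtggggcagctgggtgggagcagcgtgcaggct
Egfr (chr11:16751953-16752202, plus strand): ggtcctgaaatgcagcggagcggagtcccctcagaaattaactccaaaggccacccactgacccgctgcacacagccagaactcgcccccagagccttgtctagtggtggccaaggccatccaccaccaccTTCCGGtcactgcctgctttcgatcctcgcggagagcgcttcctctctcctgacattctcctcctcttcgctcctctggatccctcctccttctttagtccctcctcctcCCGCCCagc

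The genes around the receptors were summarised by lists (plot of pathway lists). Among the other ligands, *Egf* and *Nrg2* were tested. *Nrg2*, a second neuregulin, was at 1.42 ± 0.258 CPM in NF1-MET vehicle and 0.696 ± 0.268 CPM in capmatinib (SD, n = 2) and fell by 1.00 (SE 0.296, adjusted p = 0.00343) in NF1-MET and by 1.21 (SE 0.341, adjusted p = 0.00356) in NF1-MET;sgP53 on the log2 scale. *Egf* was called in NF1-MET;sgP53, rising from 0.291 and 0.211 CPM to 0.653 and 0.524 CPM (1.24, SE 0.446, adjusted p = 0.0181), and not in NF1-MET (0.63, SE 0.378, adjusted p = 0.140). The difference between the lines was not called (0.59, SE 0.563, adjusted p = 0.601). *Nrg3* had 0 counts and *Nrg4* 7 counts over all libraries.

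Of the 10 genes for ligand shedding, 6 rose and 4 fell in NF1-MET, and 5 rose and 4 fell in NF1-MET;sgP53, with medians of 0.170 and 0.137. Over all genes the shares were 35.5% higher and 34.7% lower in NF1-MET cells, and 34.2% and 33.4% in the sgP53 line. *Adam17*, the main sheddase of *Areg*, *Ereg*, *Hbegf* and *Tgfa* products, fell by 0.18 (SE 0.0365) and by 0.17 (SE 0.0341) on the log2 scale. *Rhbdf1* and *Rhbdf2*, whose products bring ADAM17 to the cell surface, fell by 0.47 and 0.57 in NF1-MET cells, and by 0.30 and 0.42 in the sgP53 line. *Adam10*, which sheds betacellulin, rose by 0.11 (SE 0.0245) and 0.19 (SE 0.0300). *Adam12* rose from 8.10 and 9.33 CPM to 25.5 and 28.7 CPM in NF1-MET and from 9.34 and 10.3 CPM to 28.1 and 27.8 CPM in NF1-MET;sgP53 (log2 fold change 1.63 and 1.501). In the interaction 1 of the 10 genes, *Adam19*, was called, with a smaller rise in NF1-MET;sgP53 (-0.16, SE 0.0415, adjusted p = 0.0126), in the direction of 5.86% of all genes.

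Of 19 tested genes for receptor inhibition and turnover, 5 rose and 9 fell in NF1-MET, and 8 rose and 7 fell in NF1-MET;sgP53, with medians of -0.0643 and -0.0638, beside 35.5% higher and 34.7% lower, and 34.2% and 33.4%, over all genes. *Errfi1*, a feedback inhibitor that binds the ERBB kinase domain, was at 594 ± 4.46 CPM in NF1-MET vehicle and 599.4 ± 1.82 in capmatinib (SD, n = 2), and its log2 fold change of 0.00 (SE 0.0211, adjusted p = 0.890) was not called there. In NF1-MET;sgP53 it went from 635 ± 15.0 to 692 ± 4.84 CPM, a rise of 0.12 (SE 0.0259), and the difference between the lines was called (0.11, SE 0.0336, adjusted p = 0.0373). *Lrig1*, which promotes degradation of ERBB receptors, fell by 0.46 (SE 0.0264) in NF1-MET and by 0.62 (SE 0.0308) in NF1-MET;sgP53, with a called difference of -0.17 (SE 0.0388, adjusted p = 0.00455). *Sh3kbp1*, an adaptor of CBL in receptor endocytosis, fell by 0.53 (SE 0.0251) and 0.38 (SE 0.0315), with a called difference of 0.13 (SE 0.0398, adjusted p = 0.0313). For the interaction, 4 of the 19 genes were called higher and 1 lower, beside 3.85% and 5.86% over all genes. Calls of pathway genes were not checked under the alternative settings, under which the interaction calls over all genes moved. The falls of *Socs5* and *Stam* also differed between the lines, by 0.15 (SE 0.0392, adjusted p = 0.0116) and 0.20 (SE 0.0578, adjusted p = 0.0259). *Cbl*, a ubiquitin ligase of EGFR, was not called in NF1-MET (-0.06, SE 0.0340) and fell by 0.16 (SE 0.0349) in NF1-MET;sgP53, and the difference between the lines was not called (-0.11, SE 0.0533, adjusted p = 0.216). *Rnf41*, a ubiquitin ligase of ERBB3, rose by 0.20 (SE 0.0475) and 0.33 (SE 0.0469).

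Between the lines, *Cblb* was lower in NF1-MET;sgP53 than in NF1-MET in vehicle (-0.48, SE 0.0451, adjusted p = 9.65e-08) and in capmatinib (-0.27, SE 0.0442, adjusted p = 0.000365). It stood at 44.5 and 43.8 CPM in NF1-MET vehicle cells, against 32.8 and 31.5 CPM in vehicle cells of NF1-MET;sgP53. *Sh3kbp1* was lower too, by 0.36 (SE 0.0278) in vehicle and by 0.20 (SE 0.0301) in capmatinib on the log2 scale. Of the 19 genes, 4 were lower and 2 higher in vehicle, and 2 were lower and 2 higher in capmatinib, beside 12.3% lower and 10.9% higher, and 6.34% and 5.94%, over all genes.

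Of 16 tested adaptors and first effectors, 10 rose and 4 fell in NF1-MET, and 7 rose and 2 fell in NF1-MET;sgP53, with medians of 0.209 and 0.0651, beside 35.5% higher and 34.7% lower, and 34.2% and 33.4%, over all genes. *Gab1*, a docking protein of EGFR and MET, rose from 20.97 and 19.7 CPM to 44.5 and 45.7 CPM in NF1-MET and from 20.5 and 20.6 CPM to 47.2 and 46.6 CPM in NF1-MET;sgP53 (log2 fold change 1.14, SE 0.0522, and 1.19, SE 0.0491). *Stat3*, a transcription factor activated by many receptor kinases and cytokines, rose by 1.24 (SE 0.0300) and 1.08 (SE 0.0331), with a called difference between the lines of -0.18 (SE 0.0437, adjusted p = 0.00822). Of the 16 genes, 1 was called higher and 2 lower in the interaction (3.85% and 5.86% over all genes), and the others were *Ptpn11* (-0.17, SE 0.0371, adjusted p = 0.00406) and *Pik3r1* (0.19, SE 0.0455, adjusted p = 0.00613). *Grb2*, the adaptor that links ERBB receptors to SOS, moved by -0.10 (SE 0.0357, called) and -0.05 (SE 0.0359, not called). *Shc1* rose by 0.40 (SE 0.0285) and 0.43 (SE 0.0316). *Met* itself, the target of capmatinib, went from 357 ± 7.52 to 231 ± 0.970 CPM in NF1-MET and from 343 ± 1.13 to 247 ± 1.65 CPM in NF1-MET;sgP53 (log2 fold change -0.64 and -0.47), and this fall differed between the lines (0.16, SE 0.0364, adjusted p = 0.00565). Both lines also carry the MET transgene, and whether its transcripts were counted with those of *Met* was not tested.

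**Figure D5:**
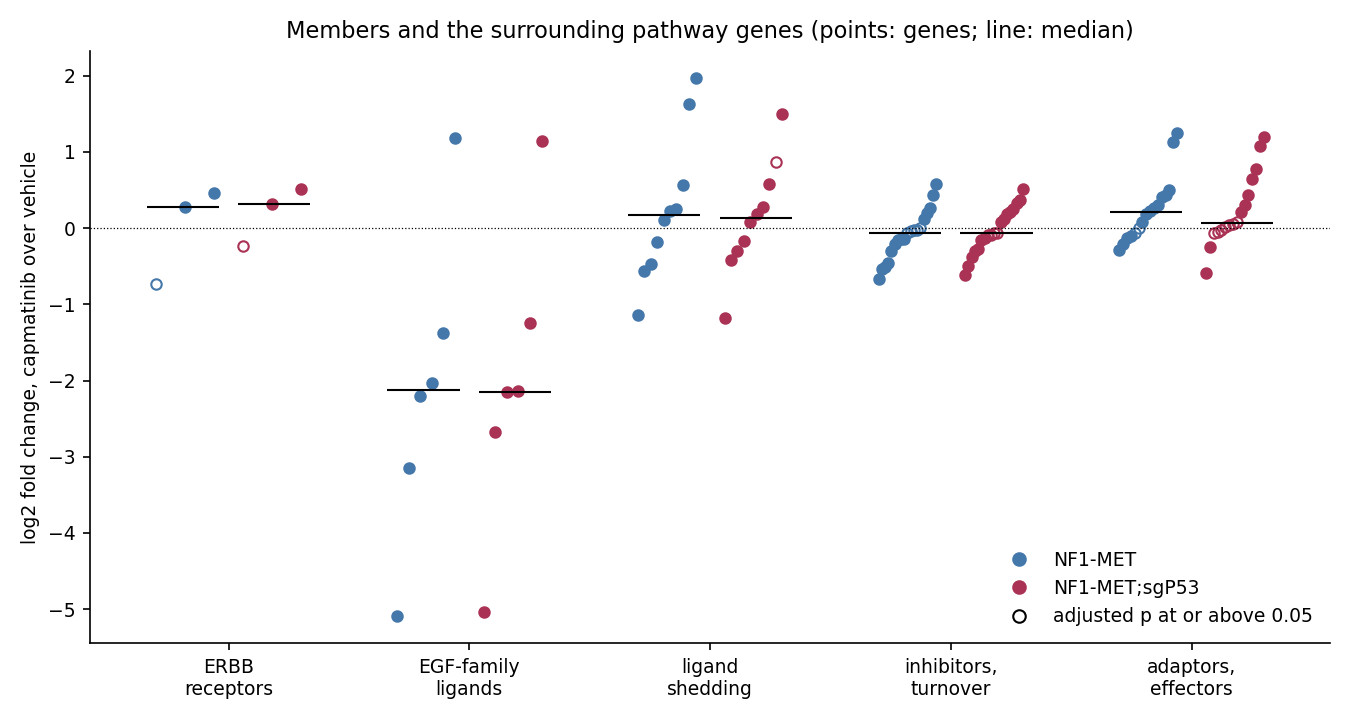
Log2 fold change of capmatinib over vehicle for each tested gene of 5 lists (points, open where the adjusted p is 0.05 or above) with the median as a line, in NF1-MET (blue) and NF1-MET;sgP53 (red). The ligand medians lie at -2.12 and -2.14 (-2.21 and -2.14 without *Tgfa*), while those of the other 4 lists lie between -0.0643 and 0.317.

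The genes whose log2 level ran most like that of the leading ligand and the leading receptor were taken over the 8 libraries, among the 8659 genes whose mean reached 10 CPM. For *Ereg* they were *Spp1* (Pearson r = 0.9996), *Zbtb44* (0.9995) and *Pthlh* (0.9995). For *Erbb2* they were *Sdhc* (0.9963), *Plekhb2* (0.9926) and *Atxn7l1* (0.9923). The 8 points fall into treated and untreated libraries, and no p is given for these values.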

How the data were processed

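Per the labels and the study's methods, poly(A) RNA libraries (KAPA mRNA HyperPrep) were sequenced from both ends. The submitters' processing notes name bcl2fastq 1.9.0, Trim Galore 0.4.2, FastQC 0.11.7, STAR 2.5.2b and mm10. The deposited values are raw read counts per gene that the authors took from STAR, whole numbers without normalization, and each of the 8 libraries had 1 column (30.1 to 42.8 M counts). The annotation release and the strand setting are not given in the sources used here.

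The filter required 10 or more counts in 2 or more of the 8 libraries (14497 of 50600 genes), and a count above 0 in 2 or more libraries of the comparison. They were tested with edgeR 4.0.16 (R 4.3.3), using TMM factors within a comparison and the quasi-likelihood F-test, with Benjamini-Hochberg adjustment over all tested genes at 0.05. Every adjusted p in the text is from this test unless DESeq2 1.42.0 is named. CPM are scaled by TMM over 8 libraries, and CPM per kb use exon lengths of GENCODE M21, in which 50376 identifiers (99.56%) were found. Ratios of few counts have exact 95% intervals. The 5 comparisons were capmatinib in each line, the lines in each treatment, and the interaction.

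Alternatives were DESeq2's size factors and Wald test, library totals, omission of *Gm42418*, no filter and a stricter filter (12802 genes), a replicate block, 1 model for 8 libraries, and each library left out. They were read for the members and for the calls over all genes. Calls of *Met*, *Trp53* and of pathway, marker and neighbouring genes were not checked under them. The members and lists were chosen with earlier results of these data known. Named were the 10 members, *Trp53*, *Met*, 11 fixed pathway genes, and called pathway genes with an absolute log2 fold change of at least 1 and 10 CPM in the higher group. Further genes (*Nrg2*, *Shc1*, *Grb2*, *Socs5*, *Stam*, *Ptpn11*, *Pik3r1*, *Adam19*, the cluster neighbours, *Epgn*, *Nrg3*, *Nrg4* and single markers) were named after their values were seen. Some marker genes are not reported here by name.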

Additional observations from a re-analysis of the deposited data

Results flagged for a closer look

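One result was marked for a closer look because the response to capmatinib differed between the lines by a test of the difference itself. The fall of *Btc* was smaller in NF1-MET;sgP53 than in NF1-MET by 0.4613 on the log2 scale (SE 0.0910, edgeR adjusted p = 0.0012). Its mean level was 74.7 ± 1.78 and 50.3 ± 1.91 CPM in the vehicle groups and 8.52 ± 0.162 and 7.88 ± 0.471 CPM in the capmatinib groups of NF1-MET and NF1-MET;sgP53 (SD, n = 2). The difference between the lines was thus called in vehicle and not in capmatinib. Over the 15 alternatives it lay between 0.421 and 0.540 and was called in each. The share of *Gm42418* in the libraries, 1.11% to 13.1%, was uneven within groups, and its part in this result beyond the fit without that gene was not tested.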

How the results depend on the processing

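The calls of *Areg*, *Btc*, *Hbegf*, *Ereg* and *Nrg1* with capmatinib held in both lines under each alternative. Members called in each comparison kept their count within 1.5 times, except for the following. Between the lines in vehicle, the number called higher was 0 with DESeq2's Wald test and 0 to 1 with a library left out. In capmatinib, the number called lower was 0 with library totals. For the interaction, the number called higher was 2 without *Gm42418*, 2 without a filter and 1 to 2 with a library left out. With the replicate block the members called were as in the main test (3 and 5 higher and lower with capmatinib in each line). Over all genes, the calls between the lines in vehicle went from 1580 higher and 1775 lower to 1905 and 2089 with this block. The difference of replicate 1 from replicate 2 was correlated between group pairs at -0.0536 to 0.102 over the 14497 genes past the filter. Genes with few counts add noise to these values, and whether replicates of the same number shared a batch was not tested. Library totals turned the difference between lines in capmatinib of *Btc* (0.00639) and *Egfr* (0.0803), and the interaction of *Nrg1* (0.0107), none of them called, and shifted the median of all genes by -0.18 and -0.12 with capmatinib.

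Leaving out a library turned values of members that were not called. *Erbb3* ran from -0.897 to 0.214 with capmatinib in NF1-MET;sgP53, and *Tgfa* from -0.683 to 0.179 between the lines in vehicle. Between the lines in capmatinib the ranges were -0.106 to 0.0411 for *Egfr*, -0.0143 to 0.113 for *Erbb2*, -0.774 to 0.342 for *Erbb3* and -1.34 to 0.162 for *Tgfa*. For the interaction they were -0.185 to 0.421 for *Areg*, -0.175 to 0.977 for *Erbb3* and -1.07 to 0.477 for *Tgfa*. The cause was not tested. Low counts limit what can be said of *Erbb3*, *Tgfa*, *Erbb4* and *Areg* in capmatinib, and 2 replicates a group limit all tests.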
